A study of Gallus gallus with 12 samples.

Results

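Most fibroblast growth factors (FGFs) are secreted proteins that carry signals between neighbouring tissue layers. A secreted FGF binds an FGF receptor on a nearby cell together with heparan sulfate, and the receptor pair switches on the ERK pathway. Inhibitors such as Sprouty proteins and DUSP6 are induced in turn and damp the signal. In the mouse lung and gut, FGF9 is made by the epithelium and the covering mesothelium and acts on the mesenchyme, whereas FGF10 is made by the mesenchyme and acts on the epithelium. FGFR2 is spliced into a IIIb form, typical of epithelia and able to bind FGF10, and a IIIc form, typical of mesenchyme and able to bind FGF9, FGF18 and FGF8. The members described here are 4 ligand genes, FGF9, FGF18, FGF10 and FGF8, and 3 receptor genes, FGFR1, FGFR2 and FGFR3. They were taken as every chicken probe set whose single gene symbol in the platform annotation is one of these names, which gave 14 of the 37693 chicken probe sets and 7 of the 13008 named genes.

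The tissue was the dorsal mesentery, the double-sided sheet that hangs the gut tube from the body wall, of Leghorn chicken embryos at Hamburger-Hamilton stage 21. All were at day 3.5 of incubation at 38 °C. A loose mesenchyme forms the core of each side and a coelomic epithelium covers it, and the 4 groups were left epithelium, left mesenchyme, right epithelium and right mesenchyme. All groups came from unmanipulated embryos as far as the labels say. Laser-cut material of each compartment was pooled within each of 3 biological experiments, amplified and put on 1 Affymetrix array, so there were 12 arrays and n = 3 per compartment. The labels give 5 ng of total RNA for each sample. The sources used here do not say how many embryos entered a pool.

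Values are linear MAS5 signals that the authors had scaled to a common mean per array. To judge dim values, 59 array controls that match no chicken transcript were ranked on each array, and the signal below which 95% of them fell was taken as its floor. This floor lay between 19.3 and 39.6, highest on right epithelium 3. The same array had the lowest 3′ minus 5′ difference of the GAPDH control, a sign of RNA quality, at 0.947 log2 (0.947 to 1.58 over the 12 arrays). Right epithelium 3 and right mesenchyme 3 also stood farthest from the fitted means of compartment and experiment, with a residual SD over the tested probe sets of 0.322 and 0.306 log2, where the lowest of the 12 arrays was at 0.253. Differences are given as log2(signal + 16), with the standard error after the ± sign, from 1 limma fit over all 12 arrays with the experiment as a block. A difference passed where limma's p, adjusted by the Benjamini-Hochberg method over 23063 tested probe sets, was under 0.05. Of the 14 member probe sets, 12 were bright enough to be tested, 3 of 4 for the ligands and 9 of 10 for the receptors. The probe set of FGF8 and the fifth of FGFR2 were not.

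The labels of the layers were checked with marker genes. Of 13 tested coelomic epithelium markers, 8 were higher and 0 lower in epithelium than in mesenchyme over both sides, led by PODXL (1.67 ± 0.08), and of 17 mesenchyme markers 0 were higher and 4 lower, led by LUM (-1.67 ± 0.14). The mesodermal marker FOXF1 was not above the floor on any array. Of 11 measured endoderm markers, SOX2 and CLDN3 were not above it in any compartment, nor was VIL1 in either epithelium. The others rose above it on at least 1 array of each compartment, with summed signals of all 11 from 384.1 to 629.9. Summed signals of the 15 measured coelomic markers ran from 51550 to 55140 in left epithelium and 35460 to 36840 in left mesenchyme, and from 58740 to 61230 in right epithelium and 40800 to 42930 in right mesenchyme. Those of the 20 measured mesenchyme markers ran from 32460 to 36950 in left epithelium and 42060 to 43880 in left mesenchyme. On the right they ran from 41370 to 43020 in epithelium and 44690 to 49050 in mesenchyme, so right epithelium overlapped left mesenchyme. Each compartment therefore carried RNA of both lists. In such bulk samples fewer cells of a type and less RNA per cell cannot be told apart.

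FGF9, the epithelial ligand, had its higher signal in the epithelium on both sides, and the highest in left epithelium. It read 448.5, 438.7 and 369.2 in left epithelium in experiments 1, 2 and 3, against 59.5, 48.1 and 30.9 in left mesenchyme. In right epithelium the signals were 161.5, 204.9 and 87.6, against 19.2, 18.3 and 48.8 in right mesenchyme. No epithelial value overlapped the mesenchymal values of its side, and the right mesenchyme was above the floor on 1 of 3 arrays.

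Over both sides FGF9 was 5.15-fold higher in epithelium than in mesenchyme, a difference of 2.36 ± 0.27 log2 (limma adjusted p = 3.61e-05). The call was kept under all 23 alternatives tried, with a highest adjusted p of 0.00528, while the difference ranged from 1.66 to 2.81 log2. On the left alone FGF9 was 7.10-fold higher (2.83 ± 0.39, limma adjusted p = 0.000492), with a range of 2.14 to 3.20 log2 over the alternatives. On the right alone the fitted difference was 1.90 ± 0.39 (limma adjusted p = 0.014). With 2 of 3 right mesenchymal arrays not above the floor its size is not well set, and it was 2.42 with a pseudocount of 1 and 1.19 with one of 64. The call was lost in a fit of the compared arrays alone (0.0832). It was also lost on leaving out right epithelium 1 or 2, right mesenchyme 1 or 2, or experiment 1 or 2, with adjusted p between 0.0603 and 0.289. Coelomic markers, 8 of 13 tested, were higher in the same layer, and their part in the FGF9 difference was not tested.

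Between the sides of the epithelium, FGF9 averaged 419 ± 43.2 on the left and 151 ± 59.3 on the right (SD, n = 3 each). The ranges lay apart and the left was higher in 3 of 3 experiments, by 1.39, 1.04 and 1.89 log2. The fitted difference, 1.44 ± 0.39 log2 or 2.72-fold, nevertheless missed the threshold (limma adjusted p = 0.0622). It passed with a pseudocount of 64 (0.0148), without the experiment as a block (0.0472), in a fit of the epithelial arrays alone (0.0469) and without right mesenchyme 3 (0.0237). In the mesenchyme the signals averaged 46.2 ± 14.4 on the left and 28.8 ± 17.4 on the right and overlapped, with a difference of 0.51 ± 0.39 (adjusted p = 0.674). Whether the left-right difference itself depended on the layer could not be settled, since the interaction was 0.93 with a 95% interval from -0.23 to 2.08 (limma adjusted p = 0.901). Blood cell markers moved along the same axis. Of 9 tested, 0 were higher and 5 lower in left than in right epithelium, with summed signals of 19730 to 63860 against 68400 to 72280, and their part was not tested.

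FGF18, a ligand of the same receptor forms as FGF8 and known for its roles in cartilage and lung mesenchyme of the mouse, followed the order of FGF9 at the ends. The signals were 243.3, 209.6 and 353.6 in left epithelium and 87.0, 107.8 and 162.2 in left mesenchyme. Right epithelium gave 144.8, 149.5 and 98.6, and right mesenchyme 74.8, 58.3 and 25.1, the last value below the floor. Left epithelium thus stood above the other 3 compartments and right mesenchyme below them without overlap, while left mesenchyme and right epithelium overlapped.

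In epithelium FGF18 was 2.17-fold higher than in mesenchyme over both sides (1.12 ± 0.27 log2, limma adjusted p = 0.0219), and the difference was positive in 3 of 3 experiments. It missed the threshold in 11 of 23 alternatives, among them no filter on dim probe sets (0.0511) and no intensity trend (0.0516). Without left epithelium 3, left mesenchyme 1 or 2, right epithelium 1 or 2, or right mesenchyme 3, taken singly, the adjusted p lay between 0.0533 and 0.0805, and without an experiment it reached 0.144. Neither side passed by itself, with 1.08 ± 0.38 on the left (adjusted p = 0.22) and 1.15 ± 0.38 on the right (0.17). The left-right differences were 1.01 ± 0.38 in mesenchyme (limma adjusted p = 0.259) and 0.94 ± 0.38 in epithelium (0.29). They did not pass, although the ranges lay apart in both layers and the left was higher in 3 of 3 experiments. Of 13 tested coelomic markers, 8 were higher and 0 lower in epithelium. Of 16 endothelial markers, 5 were higher and 0 lower in left than in right mesenchyme. The part of either list in the FGF18 differences was not tested.

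FGF10, the ligand that mouse lung and gut mesenchyme sends to epithelium, differed by side in the mesenchyme, while no difference between the layers passed. Its signals were 82.8, 28.1 and 60.6 in left mesenchyme, against 175.0, 221.1 and 260.4 in right mesenchyme. In left epithelium they were 111.9, 48.5 and 64.4, against 106.4, 217.2 and 228.2 in right epithelium. The mesenchymal ranges lay apart, whereas in the epithelium the left value of experiment 1 exceeded the right one of the same experiment.

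In left mesenchyme FGF10 was 3.35-fold lower than in right mesenchyme (-1.74 ± 0.40 log2, limma adjusted p = 0.0286), and lower in 3 of 3 experiments. Over the alternatives this difference ranged from -2.14 to -1.24 log2. The call was lost in 10 of 24 alternatives, including no filter (0.0681), no intensity trend (0.0929) and leaving out both right epithelium 3 and right mesenchyme 3 (0.162). Leaving out left mesenchyme 2 or 3 or any single right mesenchymal array also ended it, with adjusted p between 0.0584 and 0.201, and leaving out experiment 2 gave 0.35. In the epithelium the difference was -1.13 with a 95% interval from -1.98 to -0.28 and did not pass (limma adjusted p = 0.203). The 2 layers were not shown to differ in this respect (interaction 0.61 ± 0.57, limma adjusted p = 0.951).

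Between the layers FGF10 differed by 0.02 log2 over both sides, with a 95% interval from -0.57 to 0.62, which leaves room for differences of up to about these sizes in either direction. The sign of this value changed with the pseudocount and with single arrays left out. Endothelial markers differed along the same axis as FGF10 in the mesenchyme. Of 16 tested, 5 were higher and 0 lower on the left, with summed signals of 12290 to 13390 in left mesenchyme against 5675 to 6425 in right mesenchyme. Of the coelomic markers, 0 of 13 were higher and 3 lower there, namely KRT7, GATA4 and ALDH1A2. The part of either list in the FGF10 difference was not tested.

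FGF8, a ligand of limb and gastrulation signalling centres, was near the floor on most arrays. It gave 41.8, 12.5 and 57.1 in left epithelium, 23.6, 39.3 and 39.3 in left mesenchyme, 88.8, 32.8 and 219.9 in right epithelium, and 36.0, 56.0 and 31.7 in right mesenchyme. The highest value came from right epithelium 3, the array with the highest floor, and right epithelium 1 read 88.8 against its floor of 25.65. Left epithelium was lower than right epithelium in 3 of 3 experiments, and left mesenchyme lower than right mesenchyme in 2 of 3. All compartments overlapped and no test was made.

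**Figure D1:**
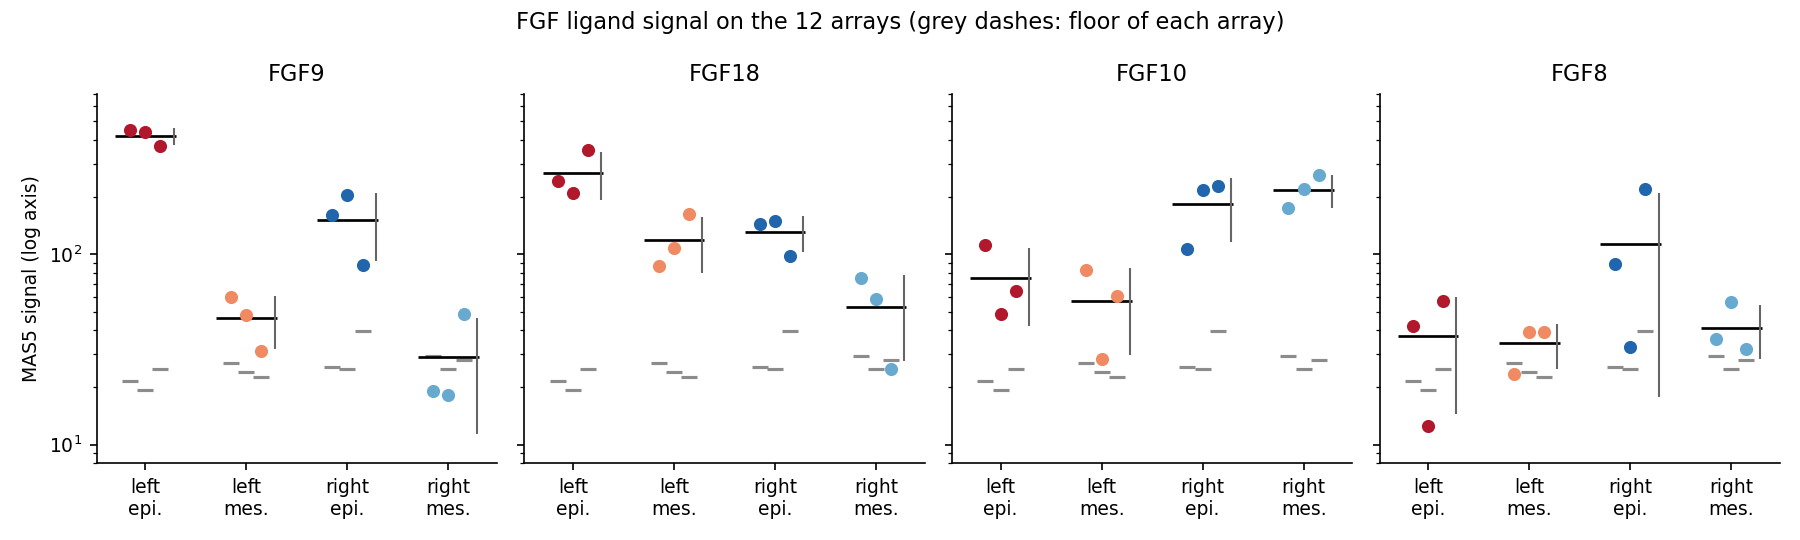
MAS5 signal (log axis) of the 4 FGF ligand probe sets on the 12 arrays, with left epithelium, left mesenchyme, right epithelium and right mesenchyme from left to right. Points are arrays in the order of experiments 1 to 3, black bars means, vertical lines 1 SD and grey dashes the floor of each array. FGF9 is highest in left epithelium, at 369.2 to 448.5. By mean, FGF10 is higher in the right compartments, with overlap between the sides in the epithelium.

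FGFR2, the receptor whose splice forms serve both directions of epithelial-mesenchymal signalling, ran the other way from FGF9. Its brightest probe set gave 2532, 2619 and 2203 in left epithelium and 3826, 3691 and 4309 in left mesenchyme. The signals were 3526, 4013 and 4237 in right epithelium and 6443, 5589 and 6060 in right mesenchyme. Right mesenchyme was above and left epithelium below every array of the other compartments, while left mesenchyme and right epithelium overlapped.

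By this probe set FGFR2 was 1.57-fold lower in epithelium than in mesenchyme over both sides (-0.65 ± 0.08 log2, limma adjusted p = 0.00013), a call kept under all 24 alternatives. It was lower on the left alone (-0.68 ± 0.12, limma adjusted p = 0.0044) and on the right alone (-0.62 ± 0.12, 0.0101). The left was lower than the right by 1.53-fold in mesenchyme (-0.61 ± 0.12, limma adjusted p = 0.0101) and by 1.60-fold in epithelium (-0.68 ± 0.12, 0.00383). Each of these differences had the same sign in 3 of 3 experiments. The interaction was -0.06 with a 95% interval from -0.42 to 0.30 (limma adjusted p = 0.985).

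The side-by-side calls of FGFR2 leaned on the variance model. Without an intensity trend the adjusted p of the brightest probe set was 0.157 for left against right mesenchyme, 0.101 for left against right epithelium, 0.112 for the layers on the left and 0.146 on the right. In the mesenchymal comparison the call was also lost without left mesenchyme 1 (0.0662), left mesenchyme 2 (0.0875) or right mesenchyme 1 (0.0879), without experiment 1 (0.129) or 2 (0.155), and without both right epithelium 3 and right mesenchyme 3 (0.0524). In the epithelial comparison it was kept without any single array, but without experiment 2 the adjusted p was 0.0688, without experiment 3 it was 0.0771, and in a fit of the epithelial arrays alone 0.0551. The layer call on the left was lost without left mesenchyme 3 (0.0506) or experiment 3 (0.0828). That on the right was lost without right epithelium 1 (0.0561), right mesenchyme 1 (0.0934), experiment 1 (0.183) or experiment 2 (0.0999).

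The 4 tested FGFR2 probe sets had their highest mean in right mesenchyme and their lowest in left epithelium. The second read 1183, 1084 and 1267 in left epithelium, 1741, 1788 and 1427 in left mesenchyme, 1842, 1895 and 2547 in right epithelium and 3137, 3611 and 3119 in right mesenchyme. Here the 4 compartments lay apart throughout, and the left was lower in mesenchyme (-0.99 ± 0.16, limma adjusted p = 0.0017) and in epithelium (-0.81 ± 0.16, 0.00789). The mesenchymal call of this probe set was lost without an intensity trend (0.0508) and without experiment 2 (0.0513). The epithelial call was lost without a trend (0.0936), with the epithelial arrays alone (0.0512), without left epithelium 2 (0.0642) or right epithelium 3 (0.0609), without experiment 1 (0.0575) or 2 (0.112), and without both right epithelium 3 and right mesenchyme 3 (0.0763). Between the layers over both sides it was lower in epithelium (-0.57 ± 0.11, limma adjusted p = 0.00507), a call lost without a trend (0.0571) and without experiment 1 (0.0887) or 2 (0.191).

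The third FGFR2 probe set ran from 964.1 to 1398 in left epithelium, 1748 to 1990 in left mesenchyme, 1330 to 2035 in right epithelium and 2621 to 3208 in right mesenchyme. It separated the layers over both sides (-0.76 ± 0.12, limma adjusted p = 0.000793) and the differences between the sides missed the threshold, with -0.60 ± 0.17 in mesenchyme (0.0886) and -0.54 ± 0.17 in epithelium (0.127). In the mesenchyme the ranges lay apart and the left was lower in 3 of 3 experiments, and the difference passed with array weights (0.0237), with the mesenchymal arrays alone (0.0195) and without left epithelium 3 (0.0299). In the epithelium it passed without left epithelium 3 (0.0183), experiment 3 (0.0179) or both right epithelium 3 and right mesenchyme 3 (0.0448). The fourth, at 113.4 to 598.3, overlapped between all compartments, and the fifth lay at 7.86 to 97.3. The sources used here do not say which splice form a probe set reads, so these values do not separate IIIb from IIIc, and probe sets of 1 gene are not replicates of a condition. Along with FGFR2, 8 of 13 coelomic markers were higher and 11 of 16 endothelial markers lower in epithelium, and their part in its difference was not tested. Between the sides, 0 of 13 coelomic markers were higher and 3 lower on the left in each layer. Of 16 endothelial markers, 5 were higher and 0 lower in left mesenchyme. Of 9 blood cell markers, 0 were higher and 5 lower in left epithelium. The part of these lists in the side differences of FGFR2 was not tested.

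FGFR3, a receptor known for its role in cartilage growth, showed no difference that passed over the 12 arrays. Its brightest probe set gave 2299, 3879 and 3702 in left epithelium, 3327, 3804 and 4731 in left mesenchyme, 1981, 2345 and 3426 in right epithelium and 4182, 3068 and 2339 in right mesenchyme. All compartments overlapped. Between the layers it differed by -0.29 with a 95% interval from -0.63 to 0.04 (limma adjusted p = 0.384). Without both right epithelium 3 and right mesenchyme 3 this difference was -0.51 and passed (limma adjusted p = 0.0416). The sides differed by 0.33 ± 0.22 in mesenchyme and 0.35 ± 0.22 in epithelium. Its second probe set gave -0.51 ± 0.17 between the layers (limma adjusted p = 0.109), negative in 3 of 3 experiments. On the right its ranges lay apart, 300.1 to 497.6 in epithelium against 530.5 to 714.7 in mesenchyme, without passing (-0.74 ± 0.24, limma adjusted p = 0.159). The third, at 195.5 to 608.1, and the fourth, at 52.8 to 166.8, overlapped between all compartments and passed in no comparison. In mesenchyme the third was higher on the left in 3 of 3 experiments (0.53 ± 0.32, limma adjusted p = 0.558). The fourth differed by 0.02 ± 0.32 between the layers.

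FGFR1, the main receptor of early mesoderm in the mouse, was read by 1 probe set. It gave 134.6, 97.9 and 96.7 in left epithelium, 129.6, 48.2 and 82.2 in left mesenchyme, 80.5, 120.8 and 64.1 in right epithelium and 94.7, 93.5 and 60.1 in right mesenchyme. Left epithelium lay just above right mesenchyme, its lowest array at 96.7 against a highest of 94.7, and every other pair of compartments overlapped. The layers differed by 0.21 with a 95% interval from -0.34 to 0.76 (limma adjusted p = 0.765), and the left-right difference in mesenchyme had an interval from -0.78 to 0.78. Differences of sizes inside these intervals were not excluded with 3 arrays per compartment.

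**Figure D2:**
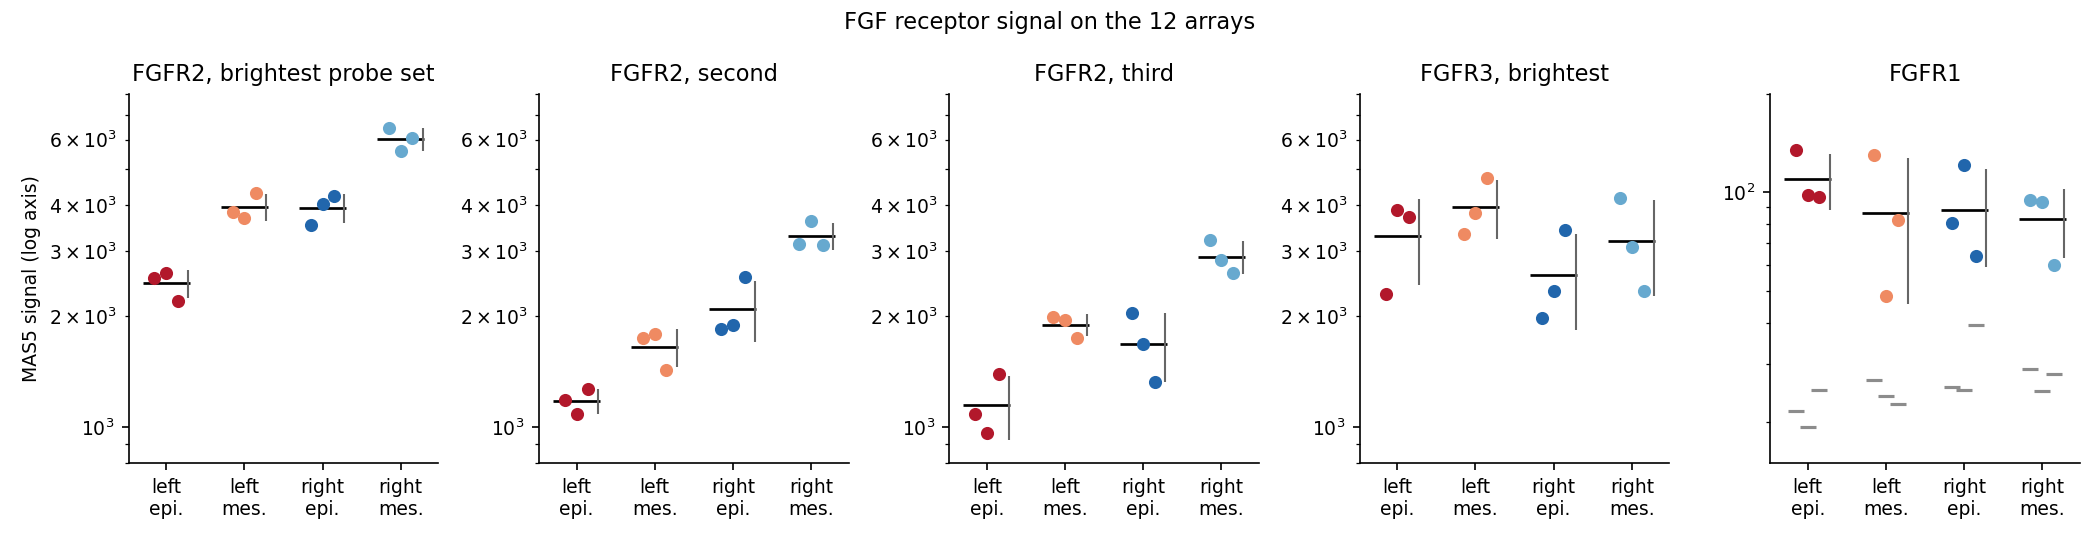
MAS5 signal (log axes, with a different range for FGFR1) of the 3 brightest FGFR2 probe sets, the brightest of FGFR3 and the one of FGFR1, with left epithelium, left mesenchyme, right epithelium and right mesenchyme from left to right. Points are arrays, black bars means, vertical lines 1 SD and grey dashes, drawn for FGFR1, the floor; each FGFR2 panel has its lowest mean in left epithelium and its highest in right mesenchyme, whereas the FGFR3 compartments overlap and those of FGFR1 do so except left epithelium and right mesenchyme.

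Counted over the tested member probe sets, epithelium against mesenchyme over both sides called 5 of 12, 2 higher (FGF9, FGF18) and 3 lower (all FGFR2), where 4.79% of all tested probe sets were called. On the left 3 of 12 were called (1.91% of all), and on the right 4 of 12 (1.90%). Beside FGF9 and the brightest FGFR2 probe set, the call on the left was the third FGFR2 probe set (limma adjusted p = 0.0314). On the right they were the second (0.0393) and the third (0.0202). These were lost in 10, 12 and 10 of 25 alternatives. In left against right mesenchyme 3 of 12 were called, all lower, where 1.99% of all were called and 1.06% were called lower. In left against right epithelium 2 of 12 were called, both lower, against 2.47% in all and 1.47% lower. Most of these calls are of FGFR2, whose probe sets share a transcript, so by gene the calls are FGF9, FGF18 and FGFR2 for the layers, FGF10 and FGFR2 for the mesenchyme, and FGFR2 for the epithelium. The interaction called 0 of 12 by limma, with 0 at an unadjusted p under 0.05, where 0.0260% of all were called. Medians over the 12 were -0.30 for the layers over both sides, -0.07 for the sides of the mesenchyme and 0.04 for those of the epithelium. Over all tested probe sets they were -0.01, 0.00176 and 0.01. The members were chosen with earlier results of these data known, so these counts and medians are a description.

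**Figure D3:**
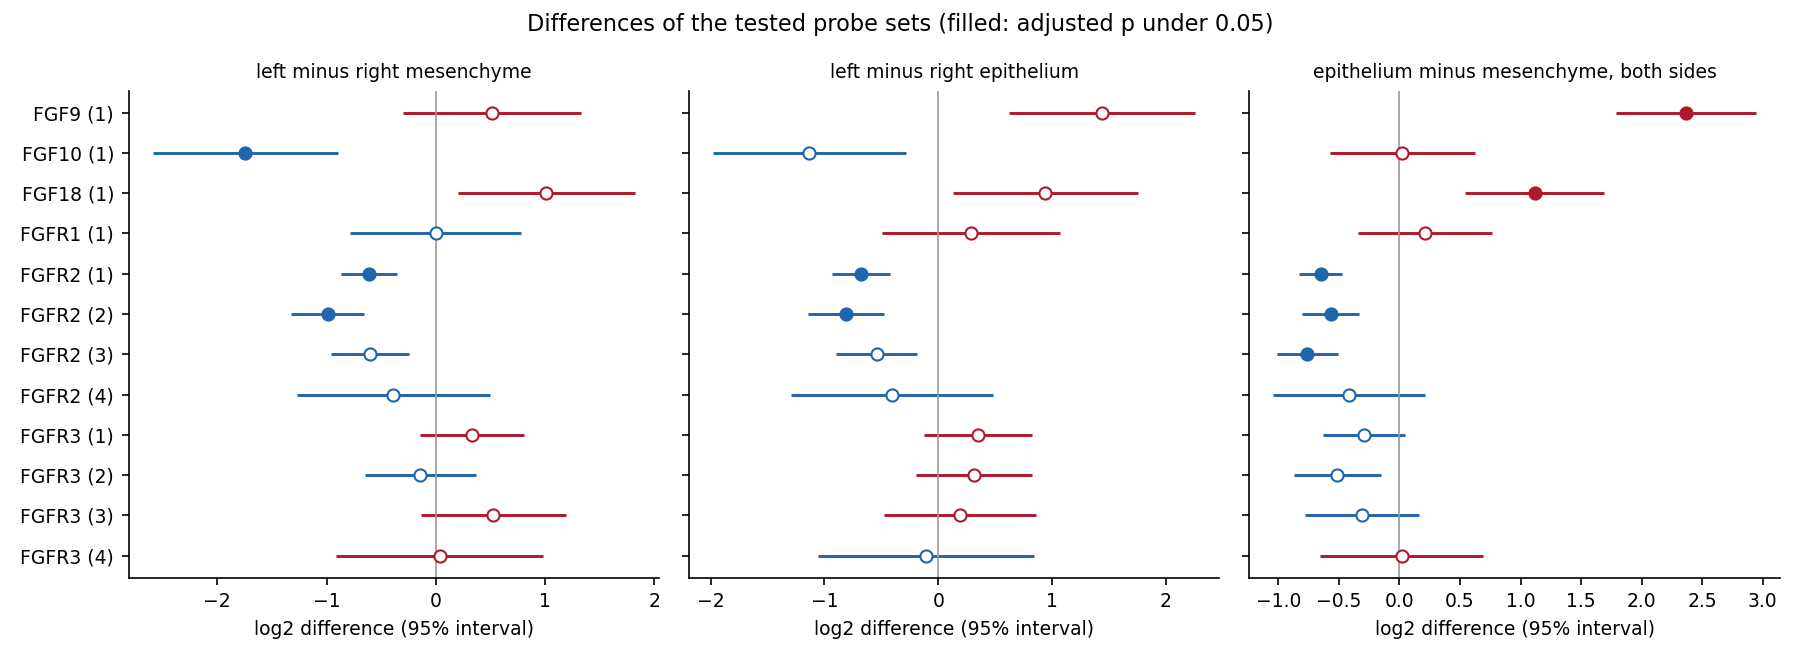
Log2 differences of the 12 tested member probe sets (numbers in brackets rank the probe sets of a gene by brightness) in 3 comparisons, with 95% intervals from limma; filled points passed at an adjusted p under 0.05, red is higher and blue lower in the compartment named first. The horizontal ranges differ between panels; FGF9 and FGF18 are higher in epithelium and 3 FGFR2 probe sets lower.

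Set side by side, the means of FGF9 and FGF18 and those of FGFR2 had opposite ends. FGF9 and FGF18 had their highest means in left epithelium and their lowest in right mesenchyme. FGFR2 had its highest in right mesenchyme and its lowest in left epithelium. For FGF9 and FGF18 the layer difference over both sides passed, whereas no left-right difference did. In the mesenchyme the FGF9 values of the sides overlapped, and experiment 3 ran the other way (-0.47 log2). Within each experiment and on each side, FGF9 was higher and the brightest FGFR2 probe set lower in the epithelium, which is 3 of 3 experiments on the left and 3 of 3 on the right. FGF10 had higher means on the right within each layer, as FGFR2 had, at 219 ± 42.8 in right mesenchyme and 184 ± 67.4 in right epithelium. On the left it was at 57.1 ± 27.5 in mesenchyme and 74.9 ± 33.0 in epithelium (SD, n = 3 each). For FGF10 the side difference passed in the mesenchyme only, and the layer difference did not pass. By their brightest probe sets FGFR3 and FGFR1 had no layer or side in which all arrays stood apart. These comparisons use the same arrays, and no test was made across genes.

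**Figure D4:**
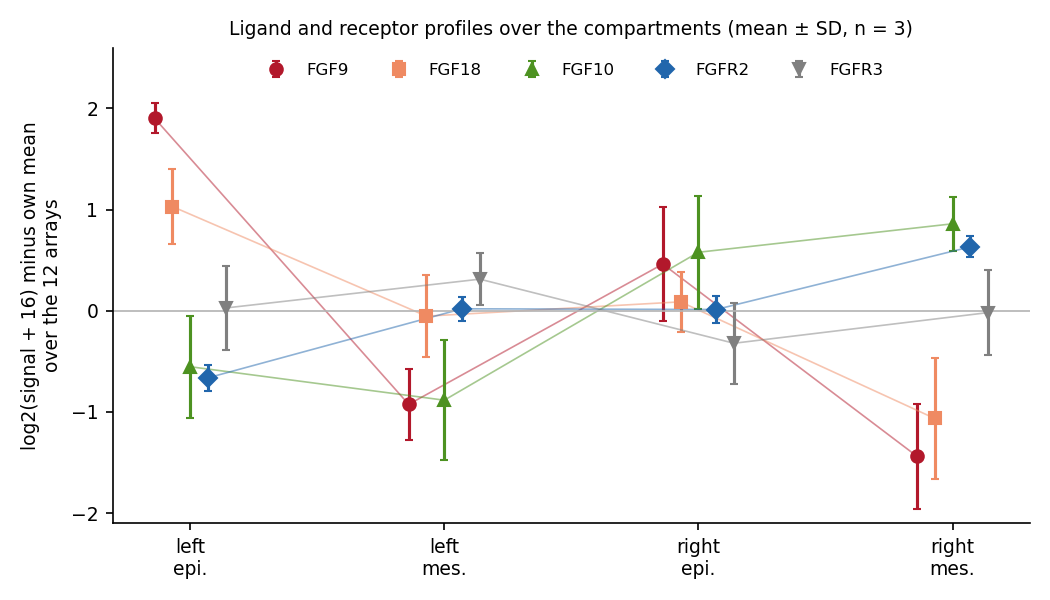
Log2(signal + 16) of FGF9, FGF18, FGF10, FGFR2 and FGFR3 (brightest probe sets) minus the gene's own mean over the 12 arrays, as mean and SD of 3 arrays in left epithelium, left mesenchyme, right epithelium and right mesenchyme; thin lines only join the points of a gene. By mean, FGF9 and FGF18 are highest in left epithelium and lowest in right mesenchyme, and FGFR2 the reverse. The left-right differences of FGF9 and FGF18 did not pass. FGF10 is above its mean in both right compartments.

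The remaining FGF family genes, not all of which encode secreted ligands, were mostly dark. Of 14 measured by a named probe set, 3 were bright enough to be tested, FGF2, FGF12 and FGF13, and limma called 0 of 3 in any comparison. Of all genes, 2.58% were called between the sides of the mesenchyme, 3.10% between those of the epithelium and 6.07% between the layers over both sides. A count of 0 of 3 is near these shares. At an unadjusted p under 0.05 there was 1 of 3 in left against right mesenchyme, 1 in left against right epithelium and 0 for the layers over both sides. FGF7, which like FGF10 binds the IIIb form of FGFR2, was above the floor on 1 of 12 arrays, and FGF3 and FGF20 on 0. FGF16, of the same subfamily as FGF9, was above it on 8 of 12 arrays, with mean signals of 62.4 in left epithelium and 30.4 in left mesenchyme and of 77.1 in right epithelium and 26.1 in right mesenchyme, and was too dim to be tested. Of the other receptors and co-receptors, 0 of the 3 tested passed, again near the shares of all genes. FGFRL1, a receptor without a kinase domain, averaged 1766 ± 113.8 in left epithelium and 2524 ± 397.9 in right epithelium (SD, n = 3 each), a difference of -0.50 ± 0.15 (limma adjusted p = 0.116).

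Downstream, all 16 measured signal transduction genes, such as FRS2 and GRB2, were tested, and limma called 0 of 16 in each comparison. With 2.58%, 3.10% and 6.07% of all genes called for mesenchyme, epithelium and layers, 0 of 16 does not set these genes apart. At an unadjusted p under 0.05 there were 0 in left against right mesenchyme, 2 in left against right epithelium and 3 for the layers over both sides. The share of all genes at this unadjusted level is not given here, so such counts are only a description. Among 12 tested feedback inhibitors and targets 2 were lower and 0 higher in epithelium over both sides, where 6.07% of all genes were called. DUSP6, an ERK phosphatase that ERK signalling induces, gave 1626, 2340 and 2345 in left epithelium against 3031, 3593 and 3330 in left mesenchyme. On the right it gave 2408, 2344 and 2225 in epithelium against 2724, 2513 and 2674 in mesenchyme. No epithelial array reached the mesenchymal values of its side.

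DUSP6 was thus lower in epithelium over both sides (-0.43 ± 0.10, limma adjusted p = 0.0167) and on the left (-0.67 ± 0.14, 0.0154), while on the right the difference was -0.18 ± 0.14 (0.667). Both calls were lost in 8 alternatives each. For both sides these included no trend (0.117) and leaving out left mesenchyme 2 (0.06), right epithelium 2 (0.0508) or right mesenchyme 1 (0.0706). For the left they included leaving out left epithelium 1 (0.108) or any single left mesenchymal array (0.0684 to 0.112). FLRT2, a membrane protein of a family that includes FGF receptor partners, was lower in epithelium over both sides (-0.37 ± 0.09, limma adjusted p = 0.0224). Its other 4 tested probe sets were lower too, 1 of them past the threshold. The call was lost in 9 alternatives, with adjusted p up to 0.229, among them leaving out left epithelium 1 (0.0575), left mesenchyme 1 (0.0922), right epithelium 2 (0.0636) or right mesenchyme 1 or 2 (0.0752 and 0.0658). SPRY2 (0.00 ± 0.15), ETV5 (0.04 ± 0.16) and IL17RD (-0.15 ± 0.15), all known to be induced by FGF signalling, did not pass between the layers.

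Heparan sulfate carriers and enzymes, the third component of an FGF signalling complex, included the widest left-right differences of these lists. The lists were chosen with earlier results of these data known, so their counts are a description. Of 22 tested, 2 were higher and 0 lower in left than in right mesenchyme (2.58% of all genes were called in either direction), and 2 were higher and 1 lower in left than in right epithelium (3.10%). HS6ST1, which adds 6-O-sulfate to heparan sulfate, gave 1102, 974.7 and 1196 in left epithelium against 378.2, 458.6 and 342.4 in right epithelium. It was 2.72-fold higher on the left (1.44 ± 0.21, limma adjusted p = 0.000734), and the call was kept under all 25 alternatives. HS6ST2, of the same enzyme family, was lower on the left, at 3382, 3267 and 3497 against 5429, 4583 and 5007 (-0.56 ± 0.10, limma adjusted p = 0.00581). It missed the threshold in 4 alternatives, with adjusted p up to 0.122, and its other tested probe set was lower too (-0.48) without passing. In mesenchyme neither gene passed, but the ranges lay apart in the same directions. HS6ST1 ran from 721.9 to 837.0 on the left against 371.6 to 585.4 on the right. HS6ST2 ran from 3825 to 4440 against 4679 to 5262. The interaction called 0 of 22 of this list.

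Syndecan 1, encoded by SDC1, is a heparan sulfate proteoglycan of epithelial surfaces. It gave 1504, 1436 and 1322 in left epithelium against 910.2, 938.6 and 957.7 in left mesenchyme, and 1260, 1095 and 807.0 in right epithelium against 512.6, 485.8 and 450.4 in right mesenchyme. It was higher in epithelium over both sides (0.84 ± 0.12, limma adjusted p = 0.000414), a call kept under all 24 alternatives. It was also higher in left than in right mesenchyme (0.93 ± 0.17, limma adjusted p = 0.00678). This call was lost without left mesenchyme 3 (0.0708) or without any 1 of the experiments (0.0614 to 0.158). The other tested SDC1 probe set passed between the layers (0.95) but not between the sides of the mesenchyme (1.12). SDC2 was higher in epithelium by 0.37 ± 0.08 (limma adjusted p = 0.00867). Its call was lost without an intensity trend (0.118) and without experiment 1 (0.146) or 2 (0.109). The other tested SDC2 probe set was higher too (0.52) without passing. The glypican gene GPC3 was 3.79-fold higher in left than in right epithelium, at 1375 ± 208 against 349 ± 26.6 (SD, n = 3 each, limma adjusted p = 6.25e-06). It was also 3.07-fold higher in left than in right mesenchyme, at 1600 ± 56.1 against 512 ± 54.3 (limma adjusted p = 6.22e-05). Both calls were kept under all 25 alternatives. Between the layers over both sides the heparan sulfate list had 2 higher and 0 lower of 22, where 6.07% of all genes were called in either direction.

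**Figure D5:**
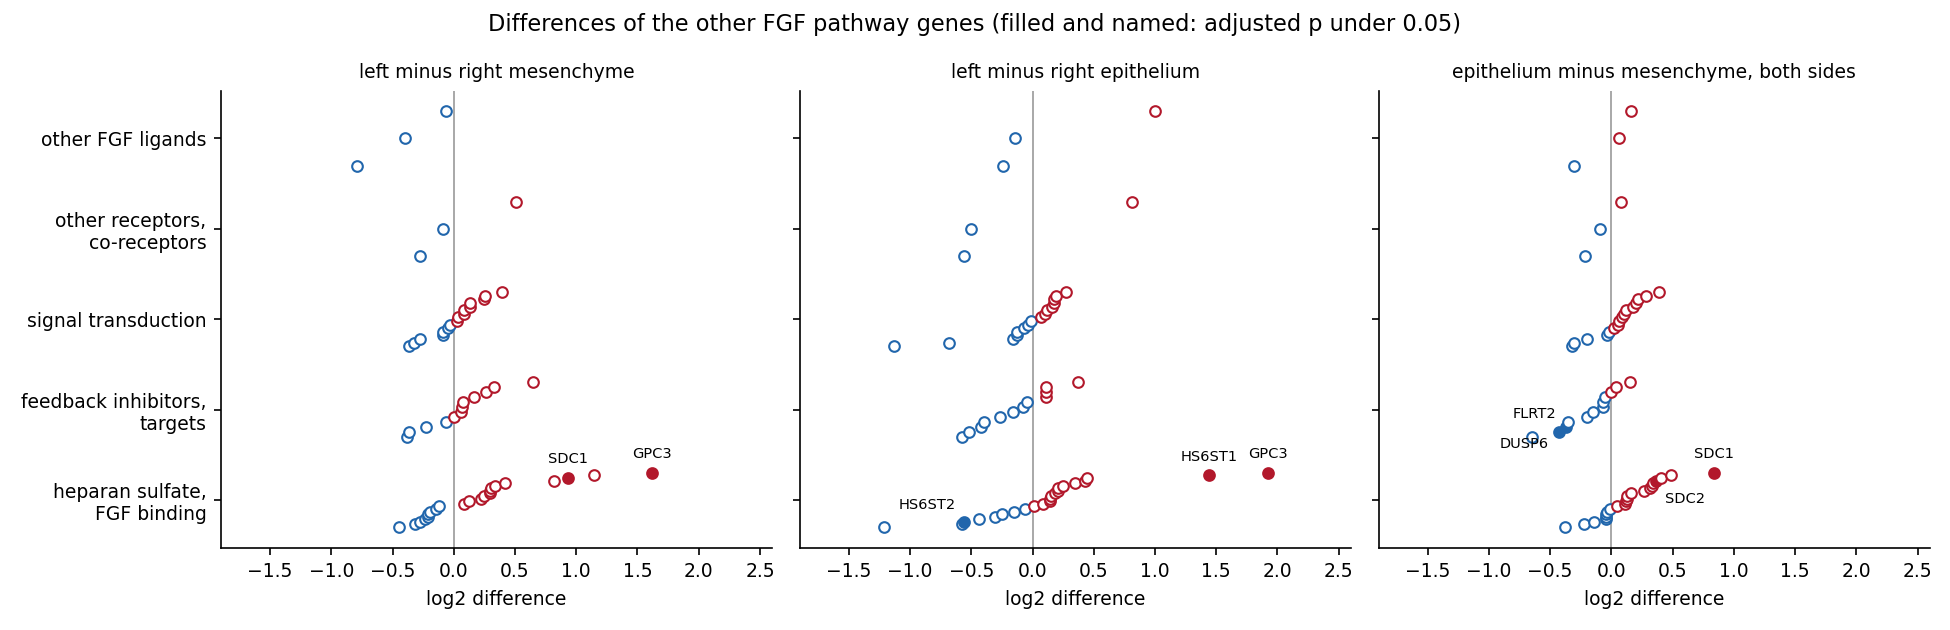
Log2 differences of the tested genes (1 probe set each) in 5 lists of other FGF pathway genes, in 3 comparisons; each point is a gene, spread vertically within its list by rank, and filled, named points passed at a limma adjusted p under 0.05. Signal transduction genes and the rows of other FGF ligands and of other receptors and co-receptors have no filled point. In the panel of the layers DUSP6 and FLRT2 are lower in epithelium, and SDC1 and SDC2 higher. In the left-right panels that name them, GPC3, SDC1 and HS6ST1 are higher on the left and HS6ST2 is lower.

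For each member the named genes with the most similar profile were found by Pearson's r over the 12 arrays on the log2 scale. Differences between compartments and the scatter of arrays within them both enter this value. For FGF9 these were GJA1 (0.949), which encodes the gap junction protein connexin 43, PLCH1 (0.947) and NOP2 (0.946). For FGF18 they were MTO1 (0.968), LAMA5 (0.955), the gene of a basement membrane laminin chain, and FEN1 (0.926). For FGF10 they were PTBP1 (0.926), IL13RA2 (0.924) and IDH1 (0.919). The closest to FGFR2 were COL4A1 (0.966), a chain of the basement membrane collagen, MYL4 (0.965) and C7 (0.964), and the closest to FGFR3 was EPN2 (0.91). FGFR1 reached at most 0.885, with TMEM2. These are the highest values among all named genes with a tested probe set, 9735 in number, and are given as a description.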

How the data were processed

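The authors deposited 1 table of Affymetrix 1-colour intensity values, made with MAS5 in GCOS per the submitters' processing notes (no versions), and the values were scaled to a 2% trimmed mean of 500.11 to 500.12 per array. The detection calls were not used. Of the probe sets on an array, 66.1% to 75.4% lay above the floor. Symbols came from the platform annotation. Probe sets with a mean log2(signal + 16) above the 40th percentile (signal 47.4), 23063 in number, were fitted with limma 3.58.1 in R 4.3.3 with compartment and experiment as fixed terms and variances moderated along an intensity trend, and the script was checked on simulated data. Residual and prior degrees of freedom were 6 and 10.6. The brightest probe set stands for a gene, all member probe sets are named, and of each list the genes that passed, up to 8 a comparison. Members and lists were chosen with earlier results of these data known. The replicate number was read as the experiment, since the series text says that each experiment gave all 4 compartments. Deviations of the 18 same-number pairs correlated at -0.0629 to 0.105 (mean 0.0208), those of the 36 other pairs at a mean of -0.0104. Whether the experiments were separate embryos is not stated beyond the word biological. Alternatives were the pseudocount, filter, normalization, trend, weights, block, compared arrays alone and arrays left out. An exact test of 3 against 3 arrays cannot go below p = 0.1. The number of arrays limits the precision. Sequences were not used here.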

Additional observations from a re-analysis of the deposited data

How the results depend on the processing

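Precision was limited by 3 arrays per compartment and, for dim probe sets, by signals near the floor. Across 1017 recomputations of 42 member differences, 892 kept their direction and their side of the threshold, 91 fell below it, 11 rose past it and 23 turned sign. All 23 belonged to FGF10 between the layers, FGFR1 or FGFR3, none of which had passed in that comparison. The tally covered FGF9, FGF18, FGF10, FGFR1, the 3 brightest FGFR2 probe sets and the brightest of FGFR3. For these it held every comparison of sides and layers, but the interaction of FGF9 and FGF10 alone. The dimmer tested probe sets of FGFR2 and FGFR3 and the remaining interactions were not in it, so it says nothing of their stability. The 7 genes of the wider lists were recomputed by a choice made after seeing the data, and none of them turned sign. Fits with arrays left out have fewer samples, and the cause of other lost calls was not tested.

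Member calls for left against right mesenchyme, left against right epithelium, and epithelium against mesenchyme over both sides, left and right were 3, 2, 5, 3 and 4 as reported. Without an intensity trend they were 0, 0, 3, 1 and 1. With a filter at the 60th percentile they were 2, 2, 3, 2 and 3, but of 7 tested member probe sets, against 12 as reported. FGF9, FGF10, FGF18 and FGFR1 were too dim to be tested under that filter, so its lower counts do not show that their calls were lost. With only the compared arrays the counts were 4 and 1 for the sides and 3 and 2 for the layers by side. Without right epithelium 3 and right mesenchyme 3, which had the widest residuals, they were 1, 2, 6, 3 and 3. With a pseudocount of 64, or without the replicate block, the epithelial count was 3, and without the block no other member count changed. Leaving out single arrays or experiments gave 0 to 4, 0 to 3, 3 to 5, 1 to 3 and 0 to 4. For the interaction the member count was 0 throughout.

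Over all probe sets the counts were 460, 569, 1105, 440 and 439, and 6 for the interaction. They were 205, 268, 672, 254, 181 and 0 without a trend. Array weights gave 763 for the mesenchyme and 14 for the interaction, the compared arrays alone 289 for the epithelium, and leaving out right epithelium 3 and right mesenchyme 3 gave 288 for the mesenchyme, 381 for the epithelium and 227 for the layers on the right. Interaction counts were 10 with a pseudocount of 64, a filter at the 60th percentile, quantile normalization or no replicate block, and 3 without a filter. With arrays or experiments left out, the counts ranged from 148 to 541, 199 to 569, 418 to 1148, 142 to 500, 108 to 443 and 0 to 15.

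FGF10 between the layers was -0.01086 with a pseudocount of 64 and -0.001087 without right epithelium 3 and right mesenchyme 3. FGFR1 in left against right mesenchyme was 0.01127 with a pseudocount of 64 and 0.02359 with array weights. With arrays or experiments left out, FGF10 ranged from -0.1479 to 0.2504 over both sides, -0.01416 to 0.6484 on the left and -0.6021 to 0.1698 on the right. FGFR1 ranged from -0.2303 to 0.3811 between the sides of the mesenchyme, -0.01839 to 0.5859 between the layers on the left and -0.2401 to 0.278 on the right. FGFR3 ranged from -0.02709 to 0.7191 between the sides of the mesenchyme and -0.7286 to 0.08549 between the layers on the right.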
